A study of Mus musculus with 6 samples.

Results

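The genes described here are the transcription factors *Tal1*, *Tal2*, *Gata2*, *Gata3* and *Helt*, the GATA cofactors *Zfpm1* and *Zfpm2*, and the GABAergic neuron genes *Gad1*, *Gad2* and *Slc32a1*, 10 genes in all. Members were all probe sets annotated to 1 of these symbols and to no other, which gave 18 of the 45037 probe sets tested on the array. They cover 9 of the 10 genes, among 18193 genes with such a probe set. *Helt*, to which no probe set was annotated, has no signal here. The genes were chosen on the group difference of *Tal2* in these arrays, to which its relatives and its lineage were added, so the values of *Tal2* between the groups describe how the list came about and carry no test.

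RNA came from dorsal midbrain of C57BL/6 mouse embryos at embryonic day 10.5 and was hybridised to 1 Affymetrix array per sample, 3 control and 3 *Ezh2* conditional knockout (cko) arrays. EZH2 is the methyltransferase of Polycomb repressive complex 2 (PRC2), which places the repressive H3K27me3 mark. In the cko embryos, a Cre recombinase driven by *Wnt1* regulatory sequence removed the floxed SET domain of *Ezh2* from both alleles. Per the study's methods, controls were littermates that either lacked the Cre and carried 2 floxed alleles or carried the Cre with 1 floxed and 1 wild-type allele, although the labels call them WT. *Wnt1*-Cre acts in the midbrain and in the neural crest, and at embryonic day 12.5, a later stage than that of the arrays, recombination was described as partial in the rostral dorsal midbrain. How many unrecombined cells the arrayed tissue held was not analysed here. Each group was taken from 2 litters, which the labels do not assign to arrays, and the study speaks of 3 dissected midbrains per group, so the errors measure the spread between those samples, litters included. The single *Ezh2* probe set had a log2 signal of 11.70 ± 0.05 over the 3 control arrays and 11.75 ± 0.04 over the 3 cko arrays (mean ± SD), and since its place relative to the deleted exons is not known here, it does not check the deletion. The midbrain genes *Otx2*, *En2*, *Pax3* and *Pax7* lay above the upper quartile of every array, while *En1* did so on 4 arrays, *Wnt1* and *Fgf8* on 3 each and *Lmx1b* on 0. Control replicate 1 and cko replicate 3 stood farthest apart on the first principal component, at -35.0 and 25.5.

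In the embryonic midbrain, GABAergic neurons, which release the inhibitory transmitter GABA, arise from progenitors that express *Helt*, and as these cells leave the cell cycle they switch on *Gata2*, *Gata3*, *Tal1* and *Tal2*. *Gata2* and *Tal2* are selector genes of this lineage in the midbrain: without them, the precursors take on features of glutamatergic neurons. The TAL proteins are basic helix-loop-helix factors that bind E-boxes with an E-protein partner, the GATA factors are zinc finger proteins that bind GATA motifs, and the same families direct blood cell development.

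*Tal1* and *Tal2* are the paralogues of the list, and *Tal2* is the gene it was built around, so their promoter windows are shown, from 250 bases before to 50 bases after each RefSeq gene start in GRCm38.p6, all on the plus strand. Capitals mark any of 4 motifs searched on both strands, namely the GATA core GATAA, which reads TTATC on the opposite strand, the E-box CAGATG, which reads CATCTG there, the palindromic E-box CAGCTG, and the TATA box TATAAA, which reads TTTATA there.
Tal2, chr4:53779451-53779750: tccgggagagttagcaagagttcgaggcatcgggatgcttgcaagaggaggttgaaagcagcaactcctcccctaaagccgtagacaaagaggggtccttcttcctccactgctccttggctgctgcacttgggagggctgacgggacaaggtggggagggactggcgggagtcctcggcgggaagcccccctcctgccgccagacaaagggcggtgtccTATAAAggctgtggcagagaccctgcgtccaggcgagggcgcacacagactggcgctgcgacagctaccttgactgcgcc
Tal1, upstream start, chr4:115056176-115056475: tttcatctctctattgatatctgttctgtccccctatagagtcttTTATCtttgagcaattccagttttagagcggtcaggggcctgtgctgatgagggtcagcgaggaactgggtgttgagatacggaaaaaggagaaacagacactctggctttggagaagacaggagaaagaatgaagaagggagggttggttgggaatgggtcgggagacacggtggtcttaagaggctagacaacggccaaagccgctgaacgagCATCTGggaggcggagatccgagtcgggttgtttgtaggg
Tal1, downstream start, chr4:115057561-115057860: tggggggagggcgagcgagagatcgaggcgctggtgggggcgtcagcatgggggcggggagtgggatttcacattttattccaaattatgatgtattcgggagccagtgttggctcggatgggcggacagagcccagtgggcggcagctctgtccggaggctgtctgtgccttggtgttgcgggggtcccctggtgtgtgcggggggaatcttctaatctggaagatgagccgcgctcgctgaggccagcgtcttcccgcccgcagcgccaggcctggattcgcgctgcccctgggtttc
The *Tal2* window held 1 TATA box, starting 30 bases before the gene start, and none of the other 3 motifs. The upstream *Tal1* window held 1 GATA core and 1 CAGATG E-box, each read from the other strand, and the downstream window held none of the 4. Among all 32851 RefSeq promoter windows of this length, 25.4% held the GATA core, 17.2% CAGATG, 16.3% CAGCTG and 13.6% the TATA box. The 11 windows matched 9 of the 10 genes, with *Helt* among them and no window for *Zfpm2*, and 2 windows held each motif. The GATA core stood in *Tal1* and *Slc32a1*, CAGATG in *Tal1* and *Gad2*, and CAGCTG in *Gata2* and *Gata3*. The letters TATAAA stood in *Tal2* and, on the opposite strand only, in *Gad1*. The motifs overlapped at 0 places in these windows. The *Tal2* window had a GC content of 62.7% and an observed-to-expected CpG ratio of 0.55, against medians of 52.7% and 0.38 over all windows, and the 11 windows ranged from 50.7% to 73.7% and from 0.54 to 0.96. A match of letters is a description of the window and does not show that a factor binds there.

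Signals are given as log2 values normalised by the authors with the robust multi-array average (RMA), and every difference is cko minus control on that scale. The 2 *Tal2* probe sets had the lowest cko signals relative to controls among the members, and both were lower on all 3 cko arrays than on any control array. Probe set 1450517_at read 10.43, 10.45 and 10.13 in control replicates 1, 2 and 3, and 9.81, 9.74 and 8.82 in cko replicates 1, 2 and 3. Its difference was -0.88 (SE 0.24, 95% interval -1.42 to -0.33), a 1.84-fold lower mean. Most of the spread among the cko arrays came from replicate 3, which lay well under the other cko arrays.

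The second *Tal2* probe set, 1460309_at, read 8.58, 8.39 and 8.47 in controls and 8.11, 8.15 and 6.67 in cko, with replicate 3 again lowest. Its difference was -0.84 (SE 0.34, 95% interval -1.62 to -0.05), a 1.79-fold lower mean. The groups did not overlap, but cko replicates 1 and 2 stood closer to the controls than to cko replicate 3. Over the 6 arrays the 2 probe sets had a Pearson correlation of 0.95, and of 0.94 after group means were removed, as probe sets of 1 gene on shared arrays. Ordered by difference among all 45037 probe sets, they stood 16th and 20th from the lowest. In whole tissue, fewer *Tal2*-expressing cells and less *Tal2* RNA per cell cannot be told apart.

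The size of the *Tal2* difference depended on cko replicate 3. Without that array it was -0.56 for 1450517_at and -0.35 for 1460309_at, and without any other single array it stayed between -1.05 and -0.82 for the first and between -1.09 and -0.79 for the second. Cko replicate 3 was also the array with the highest mean over 16 general neuron markers. With that mean as a term in the fit, the differences were -0.43 and -0.23. The mean was itself mostly higher in cko, so with few arrays this term and the group cannot be fully told apart.

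**Figure D1:**
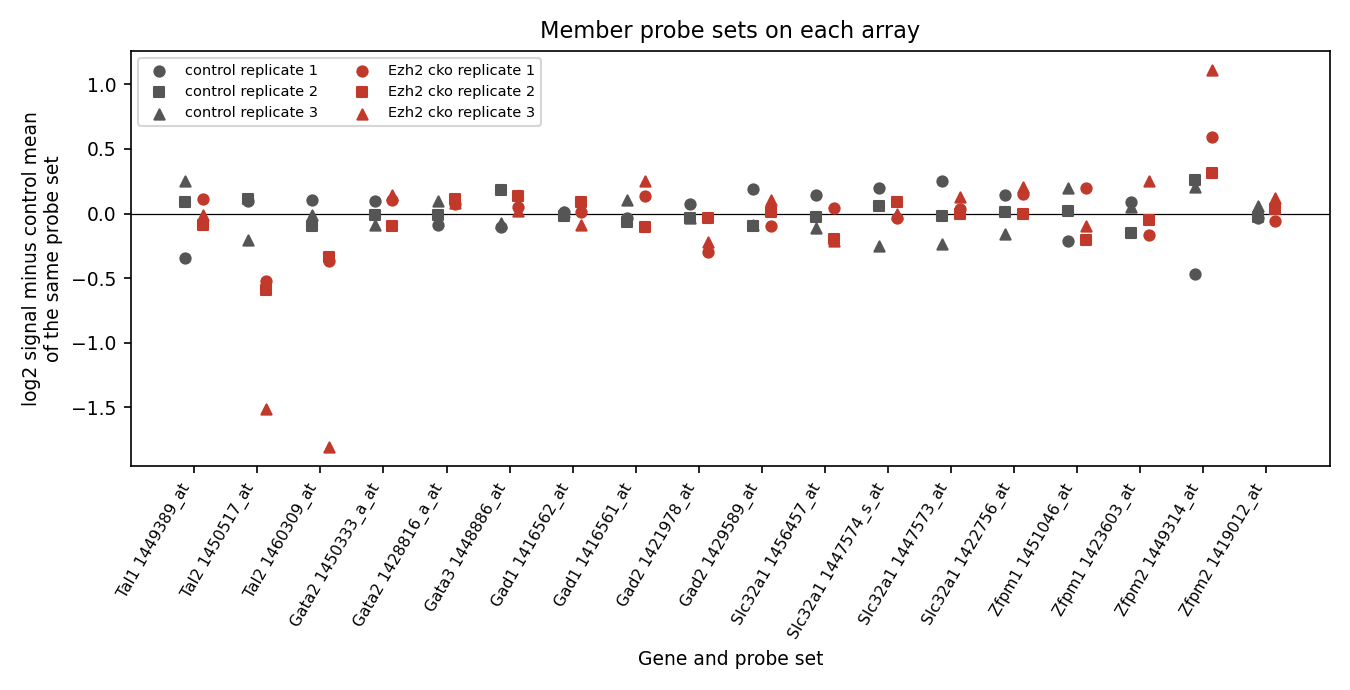
Log2 signal of every member probe set on each of the 6 arrays, as the distance from its own mean over the controls, with 1 point per array, controls in grey, *Ezh2* cko in red and the replicate by its symbol. Both *Tal2* probe sets show all cko points under the control points with cko replicate 3 lowest, *Zfpm2* 1449314_at shows all cko points above them, and the other probe sets stay near 0.

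*Tal1*, the paralogue that also specifies blood cells, had a difference near 0. Probe set 1449389_at read 8.43, 8.87 and 9.02 in controls and 8.89, 8.68 and 8.76 in cko, so that the cko arrays lay inside the control range. The difference was 0.00 (SE 0.15, 95% interval -0.33 to 0.33; limma adjusted p = 0.999). From lowest to highest, the 6 arrays stood in the same order for *Tal1* as for the mean over the erythroid markers, with control replicate 1 lowest and control replicate 3 highest in both. With the erythroid mean as a term, the *Tal1* difference was 0.10, and the part of blood cells in the *Tal1* signal was not tested beyond that value.

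*Gata2*, the GATA factor that selects the GABAergic fate in midbrain precursors, was measured by 2 probe sets whose groups overlapped. Probe set 1450333_a_at read 7.24, 7.13 and 7.05 in controls and 7.25, 7.04 and 7.29 in cko, a difference of 0.05 (95% interval -0.16 to 0.27; limma adjusted p = 0.941). Probe set 1428816_a_at read 5.81, 5.89 and 5.99 in controls and 5.97, 6.01 and 5.98 in cko, a difference of 0.09 (95% interval -0.09 to 0.27; limma adjusted p = 0.852). Both intervals included 0 and ended at 0.27 or below.

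*Gata3*, which follows *Gata2* in this lineage, lay below the lower quartile of all probe sets on every array. Its probe set 1448886_at read 3.79, 4.08 and 3.82 in controls and 3.95, 4.04 and 3.92 in cko, a difference of 0.07 (95% interval -0.15 to 0.29; limma adjusted p = 0.917). The lower quartile was between 4.25 and 4.33 on the 6 arrays. No detection calls were used, and at so low a signal an array can miss a change in a gene that few cells express.

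The Friend of GATA cofactors *Zfpm1* and *Zfpm2* bind GATA proteins and change their activity. *Zfpm2* probe set 1449314_at was the only member probe set with all cko arrays above all controls. It read 6.18, 6.91 and 6.85 in controls and 7.23, 6.96 and 7.76 in cko, with control replicate 1 lowest and cko replicate 3 highest. The difference was 0.67 (SE 0.24, 95% interval 0.13 to 1.22), a 1.59-fold higher mean that did not pass the test (limma adjusted p = 0.542). It was 0.44 without control replicate 1, 0.45 without cko replicate 3, and 0.19 with the neuron marker mean as a term.

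The other *Zfpm2* probe set gave no such difference. Probe set 1419012_at read 6.01, 6.02 and 6.10 in controls and 5.98, 6.08 and 6.16 in cko, a difference of 0.03 (95% interval -0.15 to 0.21; limma adjusted p = 0.959). The intervals of the 2 *Zfpm2* probe sets overlapped between 0.13 and 0.21 only, and which transcripts each of them measures was not analysed here.

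*Zfpm1* did not separate the groups with either probe set. Probe set 1451046_at read 6.81, 7.04 and 7.21 in controls and 7.21, 6.82 and 6.92 in cko, a difference of -0.04 (95% interval -0.34 to 0.27; limma adjusted p = 0.976). From lowest to highest, its arrays followed the erythroid marker mean as *Tal1* did, apart from control replicate 3 and cko replicate 1, which were equal to 2 decimals, and with the erythroid mean as a term its difference was 0.05. Probe set 1423603_at read 5.35, 5.11 and 5.31 in controls and 5.09, 5.20 and 5.50 in cko, a difference of 0.01 (95% interval -0.27 to 0.29).

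**Figure D2:**
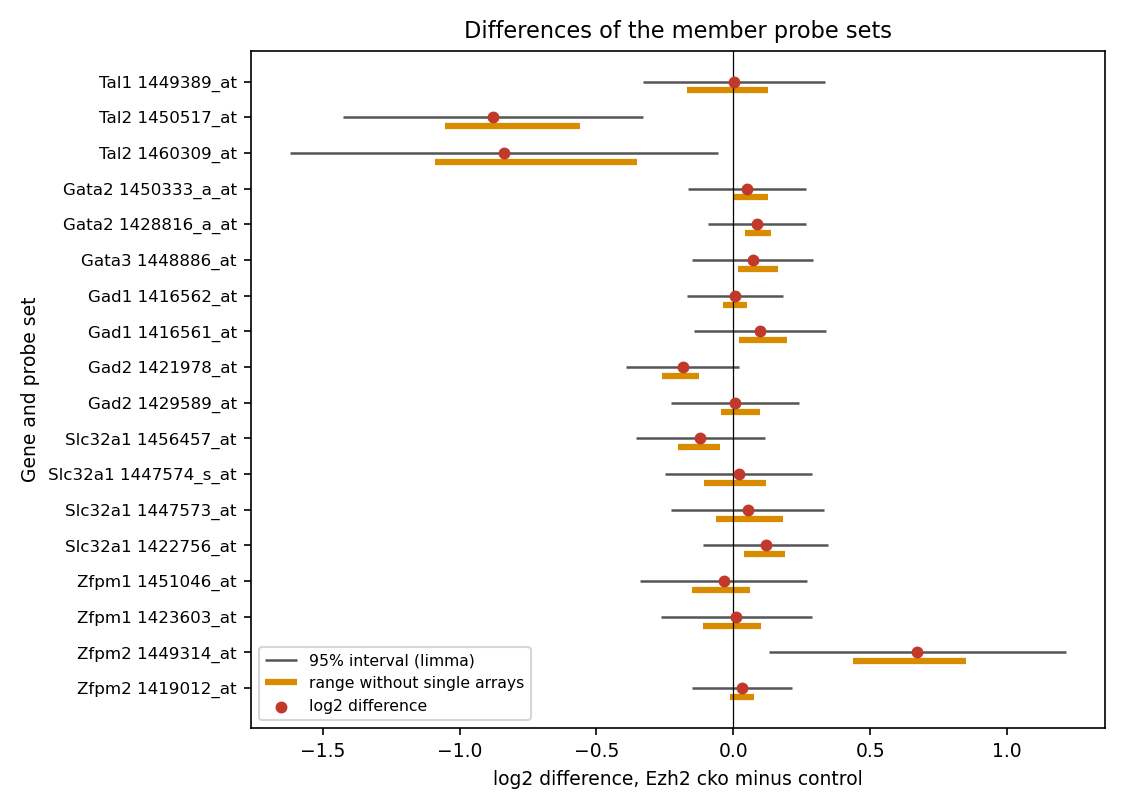
Difference between *Ezh2* cko and control (log2) for each of the 18 member probe sets. Points are the differences, thin bars the 95% intervals from limma and thick bars the range of the difference when 1 array was left out. The 2 *Tal2* intervals lie below 0, but the genes were chosen on that difference, so these intervals carry no test. Of the others, 1 *Zfpm2* interval lies above 0 and 15 include 0.

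*Gad1* and *Gad2* encode the enzymes that make GABA from glutamate, and *Slc32a1* encodes the transporter that loads GABA into synaptic vesicles. Their 8 probe sets had a median difference of 0.01 and ranged from -0.19 to 0.12, and all 8 intervals lay between -0.39 and 0.35. *Gad1* probe set 1416562_at read 4.38, 4.36 and 4.38 in controls and 4.39, 4.46 and 4.29 in cko, a difference of 0.01 (95% interval -0.17 to 0.18; limma adjusted p = 0.995). *Gad1* probe set 1416561_at, with 3.10, 3.07 and 3.24 in controls and 3.28, 3.04 and 3.40 in cko, had a difference of 0.10 (95% interval -0.14 to 0.34). These signals were low on the array, and the second probe set lay below the lower quartile on all 6 arrays.

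*Gad2* was below the lower quartile on all arrays with both probe sets. Probe set 1421978_at read 3.79, 3.68 and 3.68 in controls and 3.42, 3.68 and 3.50 in cko, a difference of -0.19 (95% interval -0.39 to 0.02; limma adjusted p = 0.712). Its cko arrays were all under its controls, but by less than 0.01 for cko replicate 2. Probe set 1429589_at, at 3.54, 3.26 and 3.27 in controls and 3.26, 3.36 and 3.46 in cko, had a difference of 0.01 (95% interval -0.23 to 0.24).

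The 4 *Slc32a1* probe sets overlapped between the groups, and none lay above the median of any array. The brightest, 1456457_at, read 5.47, 5.30 and 5.22 in controls and 5.38, 5.14 and 5.12 in cko, a difference of -0.12 (95% interval -0.36 to 0.11; limma adjusted p = 0.847). The other 3 had differences of 0.02, 0.05 and 0.12. At this stage GABAergic neurons are only beginning to form in the dorsal midbrain, and genes of mature transmitter use are known to follow the selector genes. Whether this bears on the low signals above was not tested.

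Across the 18 member probe sets, 0 passed an adjusted p of 0.05 in limma, where 0.189% of all probe sets did (0.184% higher and 0.00444% lower in cko). At an unadjusted p under 0.05 there were 3 by limma, beside 7.55% of all probe sets, and 0 by a Student t-test, beside 6.72%. The methods name that t-test for statistical analysis but do not say which test was used for the arrays. Of those 3, both *Tal2* probe sets belong to the contrast the genes were chosen on, and among the other 16 members there was 1, in *Zfpm2*. The methods' thresholds, a fold of 1.75 and an unadjusted p of 0.01, were applied here with the limma p. *Tal2* 1450517_at was the only member to pass them, with 0.0200% of all probe sets lower and 0.240% higher. This is the contrast that led to the list. All cko arrays were below all controls for 3 members (both *Tal2* probe sets and 1 of *Gad2*), as for 7.27% of all probe sets, and above them for 1 member, as for 5.72%. The median difference was 0.02 over the 18 members and 0.03 over the 16 that did not belong to *Tal2*, beside -0.02 over all probe sets.

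Further genes of the pathway were taken from lists with 1 representative probe set per gene, the one of highest mean signal. Of 100 listed genes, 92 were measured, and 0 passed the adjusted p in limma. At an unadjusted p under 0.05 there were 19 by limma (7.55% of all probe sets). By the Student t-test there were 7 (6.72% of all probe sets), and 0 after adjustment. Of the 19, 10 were general neuron markers.

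The proteins that join TAL and GATA factors in 1 complex on DNA had nearly level signals. The list holds the bridging proteins *Ldb1* and *Lmo1* to *Lmo4*, the E-proteins *Tcf3*, *Tcf4* and *Tcf12*, the LDB1-binding *Ssbp2* and *Ssbp3*, and *Lyl1* and *Gata1*. All 12 were measured, 0 passed the test, and the median difference was 0.01 with a range from -0.15 to 0.17. *Tcf4* and *Lmo4* held the ends of that range.

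Other transcription factors of GABAergic lineages in the brainstem and spinal cord had a median difference of -0.06 over the 10 that were measured, and 0 passed the test. *Sox14*, which marks GABAergic cells of the diencephalon and midbrain, read 6.33, 5.98 and 6.00 in controls and 5.90, 5.95 and 5.91 in cko, all below the controls (difference -0.19; limma adjusted p = 0.755). *Pax8*, a paired-box gene of the midbrain-hindbrain boundary and of spinal inhibitory interneurons, had a difference of 0.51 (limma adjusted p = 0.557) with overlapping groups. *Pax5*, its boundary-expressed relative, had a difference of -0.25 (limma adjusted p = 0.642).

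Forebrain GABAergic determinants include the *Dlx* and *Gsx* homeobox genes of the ganglionic eminences, where GABA neurons do not depend on *Gata2* or *Tal2*. Of the 6 measured among 7, 0 passed the test, with a median difference of 0.06. *Dlx2* read 3.93, 3.89 and 3.62 in controls and 4.50, 4.08 and 4.28 in cko, so that every cko array lay above every control (difference 0.48; limma adjusted p = 0.335). Its signal was low, above the lower quartile of all probe sets on 2 arrays and above the median on 0. In GABA uptake and breakdown, 0 of 5 measured genes passed. *Abat*, the transaminase that degrades GABA, read 8.13, 8.30 and 8.09 in controls and 8.53, 8.46 and 8.61 in cko, again without overlap (difference 0.36; limma adjusted p = 0.261).

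Genes of glutamatergic neurons, the alternative fate to the GABAergic one in this tissue, had a median difference of 0.16 over 8 measured of 10, with 6 above 0 and 0 past the test. *Slc17a8* and *Pou4f2* had no probe set with that symbol alone and are not in these counts. The study's own list of differentially expressed genes gives a *Pou4f2* probe set as higher in cko. *Slc17a6*, the vesicular glutamate transporter VGLUT2, read 7.19, 7.79 and 7.94 in controls and 7.66, 8.26 and 8.93 in cko (difference 0.64; limma adjusted p = 0.697). The groups overlapped, and cko replicate 3, lowest for *Tal2*, was highest here, as it was for the mean over the general neuron markers. *Pou4f1*, the POU factor of tectal glutamatergic and sensory neurons, was higher on all cko arrays (difference 0.49; limma adjusted p = 0.416). *Lhx9*, a LIM homeobox gene of the dorsal midbrain and thalamus, had a difference of 0.87 with overlapping groups (limma adjusted p = 0.731). *Barhl2* had a difference of 0.21. *Neurog1* and *Barhl1*, named after their values were seen as the genes of this list below 0, had differences of -0.19 and -0.12.

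**Figure D3:**
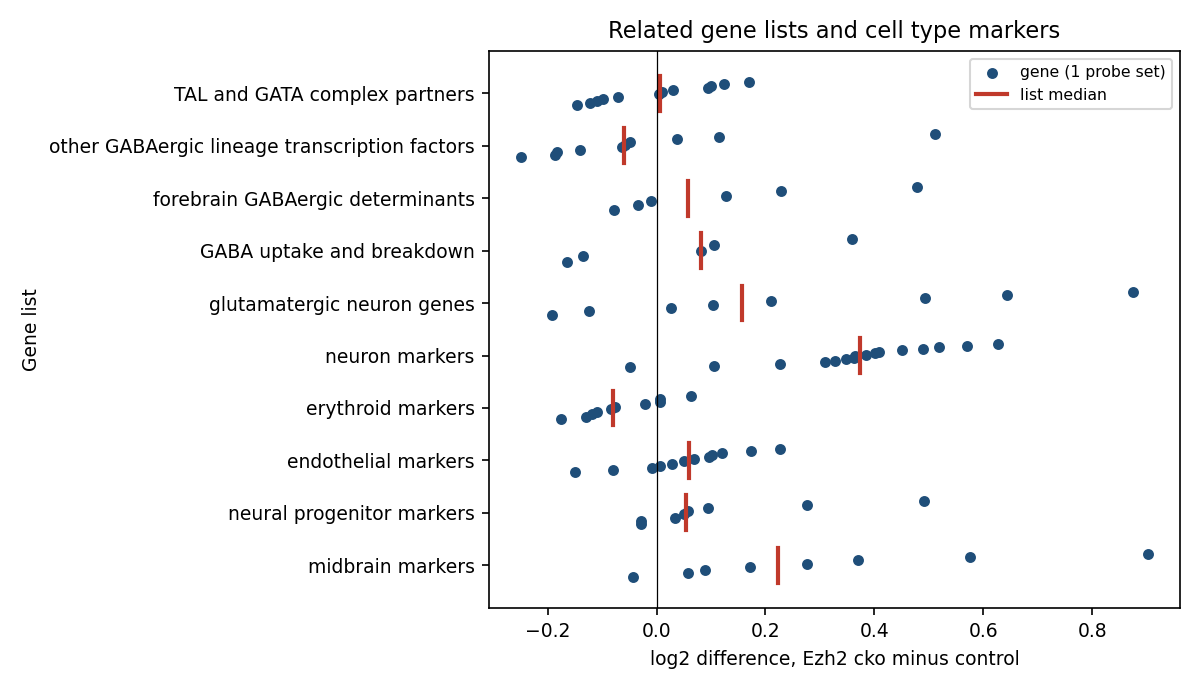
Log2 differences (*Ezh2* cko minus control) of the measured genes of each list, with 1 point per gene and a bar at the list's median. The TAL and GATA partners lie close to 0, and the neuron markers lie almost all above it, with a median of 0.37.

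General neuron markers mostly had higher means in cko. Of 16 general neuron markers, 15 had a difference above 0, with a median of 0.37 and a range from -0.05 to 0.63; 0 passed the adjusted p and 10 had an unadjusted p under 0.05 in limma, beside 7.55% of all probe sets. Their mean signal, as deviation from its mean over the 6 arrays, was -0.45, -0.08 and -0.02 in controls and -0.08, 0.20 and 0.43 in cko. The lowest array was control replicate 1 and the highest cko replicate 3, the same arrays that stood at the ends for *Zfpm2* 1449314_at. *Tal2*, a gene of newborn neurons, was lowest where these markers were highest, and the part of neuron content in the differences of *Tal2* and *Zfpm2* was not tested beyond the values with the marker mean as a term.

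**Figure D4:**
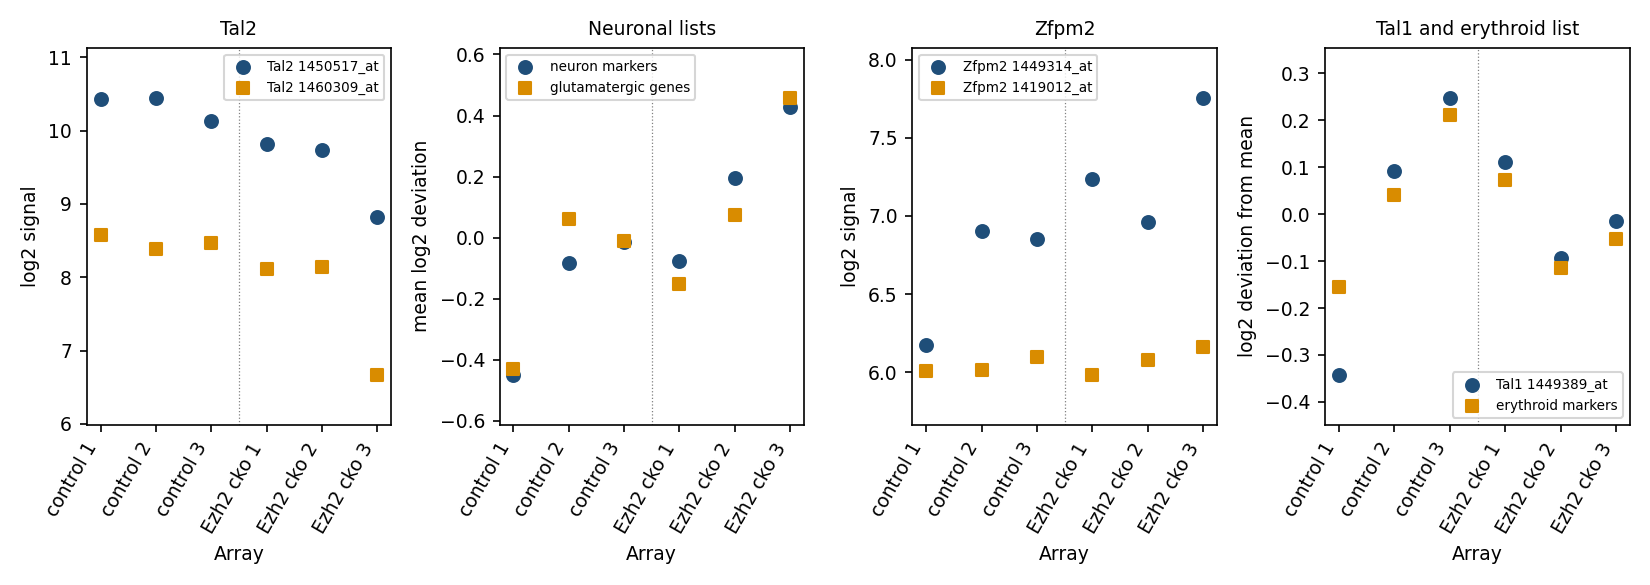
Signals per array, with control arrays left and *Ezh2* cko arrays right of the dotted line: log2 signal of the *Tal2* and *Zfpm2* probe sets, and mean log2 deviation of the neuron marker, glutamatergic and erythroid lists, the last beside *Tal1*. Cko replicate 3 is lowest for *Tal2* and highest for the neuronal lists, and *Tal1* keeps the array order of the erythroid list.

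Blood and vessel cells also express *Tal1*, *Gata2* and *Zfpm1*, and their markers had median differences near 0. Over 10 measured erythroid markers the median difference was -0.08 (range -0.17 to 0.06), and over 12 endothelial markers it was 0.06 (range -0.15 to 0.23), with 0 past the test in either. *Klf1* and *Alas2*, a transcription factor and a haem enzyme of red cells, had the erythroid differences farthest from 0, at -0.17 and -0.13. The mean erythroid signal ran from 9.74 to 10.10 over the 6 arrays. Of the 10 erythroid markers, 6 lay above the upper quartile of every array, among them the embryonic globins *Hbb-y*, *Hbb-bh1* and *Hba-x*. *Epor* did so on 1 array and *Gata1* and *Epb42* on 0, while *Hba-a1* was above the lower quartile on only 3 arrays. The embryonic globins are named as the defining genes of embryonic red cells, after their values were seen. Neural progenitor and midbrain markers, 8 measured in each list, had median differences of 0.05 and 0.22, with 0 past the test. *Wnt1*, whose regulatory sequence also drives the Cre, had the farthest difference of the midbrain list, at 0.90 (limma adjusted p = 0.0712), followed by *Lmx1b* at 0.57, both with all cko arrays above the controls. With the erythroid mean as a term, the *Tal2* difference in 1450517_at was -0.90 and that of *Zfpm2* 1449314_at was 0.78.

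The patterns most like that of *Tal2* 1450517_at over the 6 arrays belonged to *Nubp1*, *Glrx*, *Nr6a1*, *Ccnq* and *Myo5a*, with Pearson correlations from 0.992 to 0.997. With 6 arrays high correlations are common: 311 of 9825 candidate probe sets were above 0.9, all measured on the same arrays in the same groups. Of the 5, *Nr6a1*, an orphan nuclear receptor of early embryos, had the difference closest in size to that of *Tal2*. It read 9.07, 9.14 and 8.77 in controls and 8.64, 8.52 and 7.84 in cko, a difference of -0.66, and the other 4 had differences from -0.28 to -0.18. After group means were removed, the 5 closest were *Cenpb*, *Fbxo17*, *Gpatch2*, *Imp4* and *Nradd*, at 0.997 to 0.999, and 405 of the candidates were above 0.9.

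Genes beside *Tal2* on the chromosome, looked up after the values of *Tal2* were seen, did not share its size of difference. Of 6 protein-coding neighbours, 4 were measured. *Tmem38b*, the nearest measured one, read 8.60, 8.68 and 8.51 in controls and 8.43, 8.33 and 7.99 in cko, a difference of -0.35 with all cko arrays below the controls and cko replicate 3 lowest (limma adjusted p = 0.522). *Slc44a1*, *Zfp462* and *Rad23b* had differences of 0.19, -0.10 and -0.10.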

How the data were processed

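Dorsal midbrain RNA from 3 control and 3 *Ezh2* cko samples was hybridised to Affymetrix A430 arrays. The authors deposited log2 signals per probe set after RMA normalisation, whose version is not given in the sources used here. RMA brings all arrays close to 1 distribution, so a shift shared by most genes would not be seen. Of 45101 probe sets, 64 control probe sets were left out. Symbols came from the platform's annotation, which gave 34945 probe sets 1 symbol, 932 several and 9160 none.

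Groups were compared probe set by probe set by the moderated test of limma 3.58.1 (R 4.3.3) without covariates, with Benjamini-Hochberg adjustment over all 45037 probe sets, and the script was tested on simulated data. Precision is limited by how many arrays there were, and a probe set was compared only with itself. The members, the gene lists and the tests were chosen with earlier results of these data known. Every member was named by all its probe sets, and genes of each list by the adjusted p or as 1 of the up to 4 largest differences, apart from those said to be named after their values were seen and markers that check the tissue. The 5 probe sets most like *Tal2* were sought among those with 1 symbol and with mean and SD above the median. Alternatives were other normalisations, a filter on dim probe sets (40th percentile), no cross-hybridising probe sets, another variance prior and array weights. Further ones were the Student t-test, the methods' thresholds, the replicate number as a block and marker means as a term. Also tried were 1 value per gene and each array left out. Promoters are RefSeq windows of GRCm38.p6.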

Additional observations from a re-analysis of the deposited data

How the results depend on the processing

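Under every adjusted fit tried, 0 member probe sets passed, and the median member difference moved by less than the spread between replicates. At the methods' fold and p thresholds, applied with the limma p, 1 member (*Tal2* 1450517_at) passed. Over all probe sets, 85 passed in the main comparison, 0 by the Student t-test, and 21 to 46 when 1 array was left out. With the neuron marker mean as a term, which was itself mostly higher in cko, 7 passed (6 higher, 1 lower). With the replicate number as a block, 59 passed (56 higher, 3 lower) and 0 members. Deviations of same-numbered arrays had correlations of 0.06, -0.20 and 0.06. With so few arrays these values cannot show whether same-numbered samples shared a litter, which the labels do not give. *Tal2* kept a negative difference in both probe sets throughout, which describes the contrast the genes were chosen on and carries no test. With the neuron marker mean as a term, *Slc32a1* 1456457_at turned to 0.07, *Zfpm2* 1419012_at to -0.06, *Tal1* from 0.00 to -0.16 and *Zfpm1* 1423603_at from 0.01 to -0.10, and the cause was not tested. Other member differences near 0 also changed sign in some settings. The filter on dim probe sets kept 10 of the 18 members, leaving out *Gata3*, *Gad1*, *Gad2* and 3 of the 4 *Slc32a1* probe sets, whose signal over background limits what could be seen.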
